A study of Saccharomyces cerevisiae with 24 samples.

Results

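The comparison sets yeast lacking pbf2 against yeast lacking pbf1, both 20 min after a shift from 25 °C to 37 °C. It rests on 6 of the 24 arrays of the series, 3 of delta-pbf2 cells and 3 of delta-pbf1 cells, chosen by the strain and time in their labels and not by any measured value. Pbf1 is the product of TOD6 (YBL054W) and Pbf2 that of DOT6 (YER088C). They are paralogous Myb-type DNA-binding proteins that recognise a short promoter element, PAC, which many genes for ribosome assembly carry. Both are known as repressors that act when growth signals fall, as under stress, and that recruit the Rpd3L histone deacetylase. Making ribosomes takes a large share of a growing yeast cell's transcription, and genes for ribosomal proteins and for their assembly are among those shut down most strongly by heat, while chaperone and proteasome genes are switched on. The comparison asks how cells that keep only DOT6 differ from cells that keep only TOD6 in that state.

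The wild type of the series is BY4741, a MATa laboratory strain, and the delta-pbf1 cells keep DOT6 while the delta-pbf2 cells keep TOD6. Every strain had 3 cultures at 25 °C, and each culture gave an unshifted part (0 min) and a part shifted to 37 °C for 20 min. Wild type, delta-pbf1, delta-pbf2 and the double mutant delta-pbf1 delta-pbf2, at both times, make 8 groups of 3 arrays. For each array 5 ug of total RNA was turned into biotinylated cRNA. How the deletions were made, and whether a strain is 1 isolate, is not given in the labels. A value is the authors' signal, a linear brightness per probe set, and all tests were run on log2 signals. A difference below is always delta-pbf2 minus delta-pbf1 on the log2 scale, with the standard error of the fit, and a gene passed when its adjusted p was under 0.05.

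The deleted genes bore out the labels on all 6 arrays. DOT6 had signals of 991, 994 and 988 in the 3 delta-pbf1 cultures at 20 min and of 1.87, 6.61 and 3.45 in delta-pbf2, none of the latter above the array background. In delta-pbf2 it was thus at least 108-fold lower after the shift and at least 91.1-fold lower before it. TOD6 had signals of 307, 185 and 219 in delta-pbf2 at 20 min and of 1.23, 2.19 and 0.413 in delta-pbf1, again with no overlap. In delta-pbf1 it was at least 21.6-fold lower after the shift and at least 45.5-fold lower before it. These bounds set the mean of the bright group against the lowest signal that counted as above background, or the dim probe's own signal where that was higher. The remaining paralog had a geometric mean signal of 991 for DOT6 in delta-pbf1 against 889 in the wild type, and of 232 for TOD6 in delta-pbf2 against 162. Neither difference passed (0.16, adjusted p = 0.96, and 0.52, adjusted p = 0.76), in a fit whose spread for these genes includes the groups at background.

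The 6 arrays were alike in range. Between 98.3% and 98.9% of genes were above background on each, and the 3′ to 5′ signal ratio of ACT1, a measure of RNA integrity, was 1.25 to 1.44. The median gene signal was 541 to 549 in delta-pbf1 and 559 to 572 in delta-pbf2, and the background signal was 10.4 to 10.5 and 9.02 to 9.13, so the strains did not overlap in either measure. The a-cell genes of the MATa strain were well expressed, with a summed signal of 4377 to 6314 in delta-pbf1 and 6864 to 8666 in delta-pbf2 at 20 min over 7 genes. The 4 alpha-cell genes summed to 286.7 to 306.8 and 292.1 to 303.4. Their median signal per array was 29.28 to 52.31, above the background signal, while MF(ALPHA)1, a gene of the alpha pheromone, lay between 4.71 and 7.82. URA3 and LEU2, both deleted in BY4741, had signals of at most 6.90 and 23.9 at 20 min.

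At 20 min 399 of 5395 genes passed (7.40%), 289 of them higher in delta-pbf2 (5.36%) and 110 lower (2.04%). The differences were small. Their median size was 0.407 among the higher genes, a 1.33-fold difference, and 0.252 among the lower, a 1.19-fold difference. Of the 399 genes, 7 differed by at least 2-fold, 5 of them higher in delta-pbf2. The median over all genes tested was 0.018. The 2 strains' same-numbered cultures deviated together at 20 min, though culture 2 did so only weakly. With the replicate number as a block, a pairing inferred from these same data, 613 genes passed (11.4%), 435 higher (8.06%) and 178 lower (3.30%). The split between higher and lower depends on the scaling: with every array centred on its median, 186 were higher and 238 lower, so that 43.9% of calls were higher in place of 72.4%. Centred on the hybridization controls, 58 were higher and 2 lower, and centred on the poly(A) spike-ins 2 genes passed. Which scaling is right was not tested. The count also depended on single arrays. It was 132 without delta-pbf1 culture 3, 203 without its culture 2, and 163, 164 and 252 without delta-pbf2 cultures 1, 2 and 3.

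**Figure D1:**
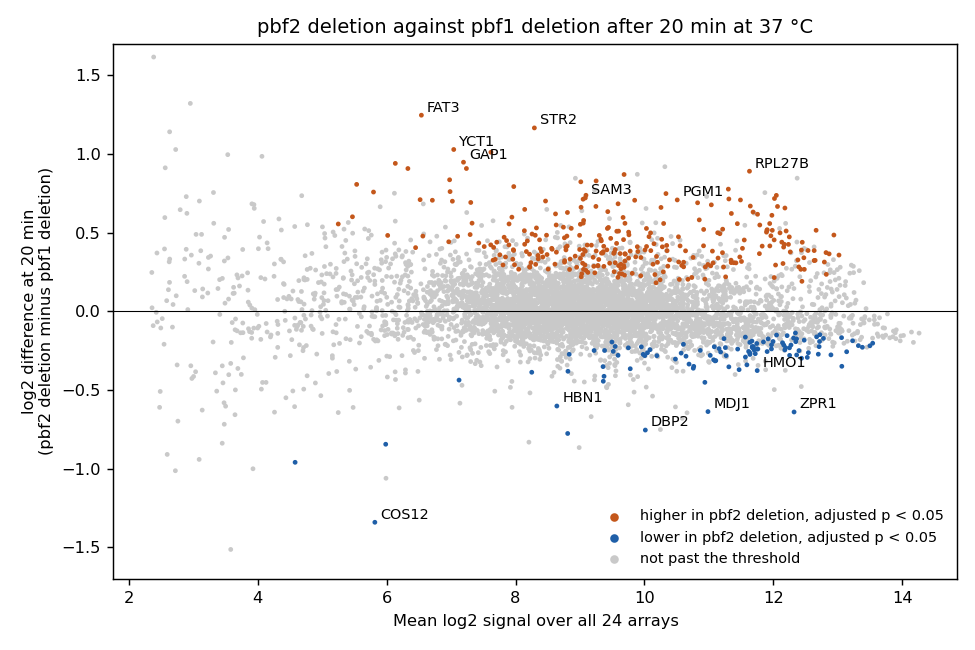
Each point is a gene. The x axis is its mean log2 signal over the 24 arrays and the y axis its log2 difference at 20 min, delta-pbf2 minus delta-pbf1; coloured points passed the test. The 289 higher genes spread to larger sizes than the 110 lower ones. The 2 deleted genes, DOT6 at -8.15 and TOD6 at 7.81, lie off the scale.

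The genes higher in delta-pbf2 were mostly ones that fell on heat shock in the wild type, and the lower ones mostly genes that rose. Of the 289 genes higher in delta-pbf2, 212 (73.4%) fell and 49 (17.0%) rose on heat shock in the wild type, whose arrays are not part of this comparison. Among all genes tested, 29.7% fell and 51.0% rose. Of the 110 genes lower in delta-pbf2, 80 (72.7%) rose and 15 (13.6%) fell. The 212 genes are 13.25% of the 1600 that fell in the wild type, and the 80 are 2.91% of the 2752 that rose. Most genes that heat shock moved thus did not pass between the 2 deletions.

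Ribosomal protein genes were higher in delta-pbf2 in many cases. Of 76 genes of the large subunit measured, 31 were higher in delta-pbf2 (40.8%, against 5.36% of all genes), 1 was lower and 44 did not pass, and their median difference was 0.31. Of 53 genes of the small subunit, 17 were higher (32.1%), none was lower, and the median was 0.27. The medians were positive under each scaling, but the number of calls changed with it. Quantile normalization gave 41 and 29 higher genes, median centring 15 and 7, the hybridization controls 5 and 3, and the spike-ins none. RPL27B, a large subunit protein gene, had signals of 1642, 1072 and 944 in delta-pbf1 and of 2327, 2232 and 2042 in delta-pbf2. The groups did not overlap, and the difference was 0.89 ± 0.27 (adjusted p = 0.0445). RPS26B, of the small subunit, had 842, 691 and 523 against 1184, 1177 and 1099. It too was higher in every delta-pbf2 culture (0.78 ± 0.21, adjusted p = 0.028).

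Among ribosomal protein genes with less spread between cultures, RPS19A read 1311, 1164 and 1167 in delta-pbf1 and 2069, 1986 and 1892 in delta-pbf2 (0.71 ± 0.13, adjusted p = 0.00174). RPL9B read 1238, 1129 and 948 against 1903, 1910 and 1612 (0.71 ± 0.15, adjusted p = 0.00503). Both passed with any of the 6 arrays left out. RPL40B, whose product is a fusion of ubiquitin with a large subunit protein, was higher by 0.74 ± 0.16, and RPL26B by 0.72 ± 0.17. RPS16B and RPS11A were higher by 0.66 ± 0.17 and 0.61 ± 0.18. RPL22B and RPS9B had differences as large, 0.92 ± 0.31 and 0.85 ± 0.34, and did not pass (adjusted p = 0.0794 and 0.145). RPL22B did so with the replicate block (adjusted p = 0.0292). Many yeast ribosomal protein genes exist as near-identical pairs, so a probe set named for one copy may also read the other.

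The ribosomal protein genes did not differ in this way before the shift. At 0 min the medians were -0.11 for each subunit, and no gene of either list passed. The median heat shock change of the large subunit list, on the log2 scale, was -1.87 in delta-pbf1, -1.45 in delta-pbf2 and -1.97 in the wild type, and that of the small subunit list was -1.77, -1.36 and -1.82. The response difference, the strain difference at 20 min less that at 0 min, had medians of 0.42 and 0.34, with 7 and 5 genes past the threshold, against 1.52% of all genes called in that direction. RPS19A was among them (0.87, adjusted p = 0.0115). Per array, the median signal of the large subunit list was 3181, 3046 and 2686 in delta-pbf1 and 3704, 3788 and 3528 in delta-pbf2. That of the small subunit list was 3837, 3363 and 3356 against 4142, 4241 and 3924. With 1 of the 6 arrays left out in turn, the medians lay between 0.23 and 0.40 and between 0.19 and 0.34. The number of higher genes ran from 5, without delta-pbf1 culture 3, to 44, without its culture 1, in the large subunit list, and from 3 to 28 in the small.

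**Figure D2:**
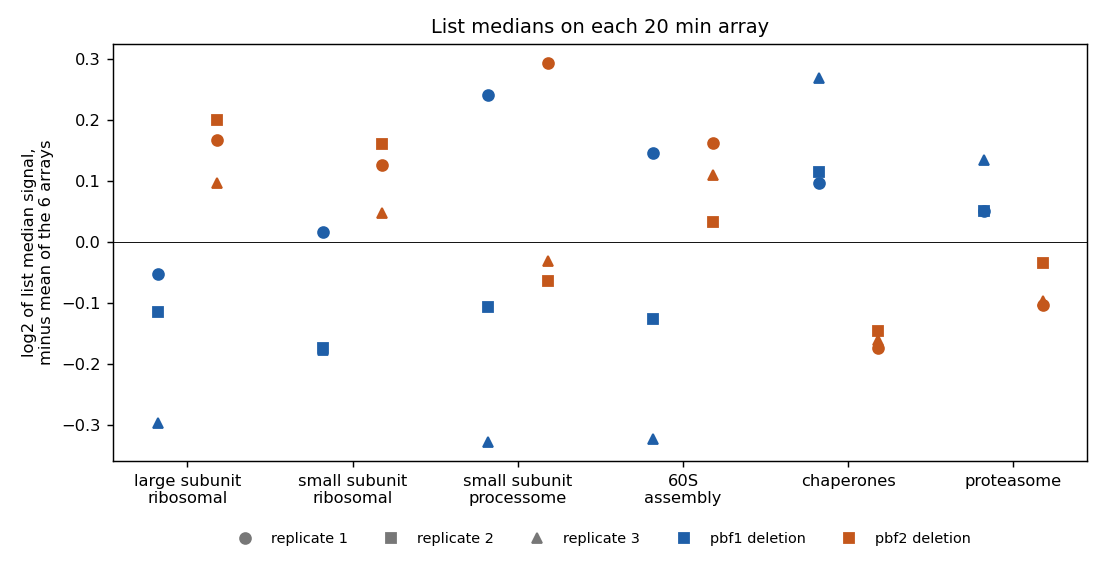
For 6 gene lists, the y axis gives the log2 of the list's median signal on each 20 min array, less the mean of the 6 arrays. Colours mark the strain and symbols the replicate number. For both ribosomal protein lists all 3 delta-pbf2 arrays lie above all 3 delta-pbf1 arrays, for chaperones and the proteasome all lie below, and for the small subunit processome and 60S assembly delta-pbf1 replicate 1 lies among the delta-pbf2 arrays.

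Assembly factors, many of whose genes carry the PAC motif, were also measured. The small subunit processome and its snoRNP proteins fold and cut the early precursor of the 40S subunit. Of 60 such genes, 5 were higher in delta-pbf2 (8.33%), none was lower and 55 did not pass, with a median of 0.16. Of 85 genes of 60S assembly, 4 were higher (4.71%), 1 was lower and the median was 0.15. These 2 shares are near the 5.36% of all genes. With the replicate block they were not: 13 processome genes (21.7%) and 17 of the 60S genes (20.0%) were higher, against 8.06% of all genes, with 1 and 2 lower. Of 15 late 40S maturation factors, 5 were higher (33.3%), none was lower and the median was 0.25.

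KRR1, which encodes a small subunit processome protein, had signals of 191, 194 and 213 in delta-pbf1 and of 257, 262 and 264 in delta-pbf2. The groups did not overlap (0.39 ± 0.08, adjusted p = 0.0043). The same gene stood at 131, 151 and 136 in the wild type and at 1209, 1158 and 1172 in the double deletion, so both single deletions lay far nearer to the wild type. It was higher than in the wild type in each single deletion, by 0.52 in delta-pbf1 (adjusted p = 0.0024) and by 0.91 in delta-pbf2 (adjusted p = 3.3e-07). These 2 comparisons share the wild type arrays. The other processome genes named were ROK1, an RNA helicase (0.48 ± 0.14), UTP20 (0.41 ± 0.10) and BMS1, a GTPase (0.39 ± 0.11), all higher. ESF2, at 0.47 ± 0.17, did not pass (adjusted p = 0.106), and passed with the replicate block (adjusted p = 0.0237).

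In 60S assembly, RSA3 read 262, 167 and 209 in delta-pbf1 and 357, 364 and 325 in delta-pbf2 (0.74 ± 0.13, adjusted p = 0.00112). MTR4, the helicase that feeds RNA to the nuclear exosome, read 241, 169 and 130 against 273, 271 and 267 (0.63 ± 0.17, adjusted p = 0.028). Neither gene's groups overlapped, and delta-pbf1 culture 1 lay nearest to delta-pbf2 in both. RAT1, the nuclear 5′ to 3′ exonuclease that trims rRNA ends, was higher by 0.51 ± 0.09. DBP2, a DEAD-box helicase, went the other way, with 350, 240 and 362 in delta-pbf1 and 256, 141 and 176 in delta-pbf2. The groups overlapped and the difference was -0.75 ± 0.17 (adjusted p = 0.0116).

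Among late 40S factors, DIM1, the methylase of small subunit rRNA, was higher by 0.58 ± 0.12, NOP6 by 0.46 ± 0.09, and RIO2, an atypical kinase, by 0.33 ± 0.09. YVH1, which stood in this list but is known for its part in late 60S maturation, was higher by 0.39 ± 0.11. The per-array medians of these lists varied widely within a strain. The processome list stood at 504, 396 and 340 in delta-pbf1 and at 522, 408 and 417 in delta-pbf2, so the groups overlapped. The 60S list stood at 498, 412 and 360 against 503, 460 and 485. Within same-numbered pairs, a pairing that is not established, delta-pbf2 had the higher list median in 3 of 3 even for lists with small median differences. These included the arginine genes (0.009), the ribosome gene regulators (0.015) and the iron and phosphate genes (-0.026). The processome and 60S lists also had 3 of 3. Without delta-pbf1 culture 3 the median differences of the genes were 0.02 in both lists, and without its culture 1 they were 0.34 and 0.30, with 13 and 15 genes higher. At 0 min the medians were -0.17 and -0.19 and none of the genes passed.

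The RNA polymerase I and III list, 42 genes, had 3 higher (7.14%, near the 5.36% of all genes), 1 lower and a median of 0.11. RPC34 (0.48 ± 0.13) and RPC82 (0.41 ± 0.09), both polymerase III subunits, and UAF30 (0.44 ± 0.12), part of the upstream activating factor at rDNA, were higher. The lower gene was HMO1, an HMG-box protein bound at rDNA and at ribosomal protein gene promoters. Its signals were 3971, 4278 and 4234 in delta-pbf1 and 3170, 3243 and 3199 in delta-pbf2, with small spread and no overlap (-0.38 ± 0.05, adjusted p = 3.91e-05). At 0 min they were 3072, 3133 and 3198 against 3136, 3121 and 3173. Heat shock thus moved HMO1 by 0.41 in delta-pbf1 and by 0.03 in delta-pbf2, and the response difference passed (-0.38, adjusted p = 0.0042). At 20 min the wild type read 3538, 3570 and 3889 and the double deletion 3969, 4076 and 4020. Of 16 other regulators of ribosome genes none passed, their median was 0.015, and IFH1, a coactivator of ribosomal protein genes, stood at 0.39 ± 0.12 (adjusted p = 0.0567, and 0.0155 with the replicate block).

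**Figure D3:**
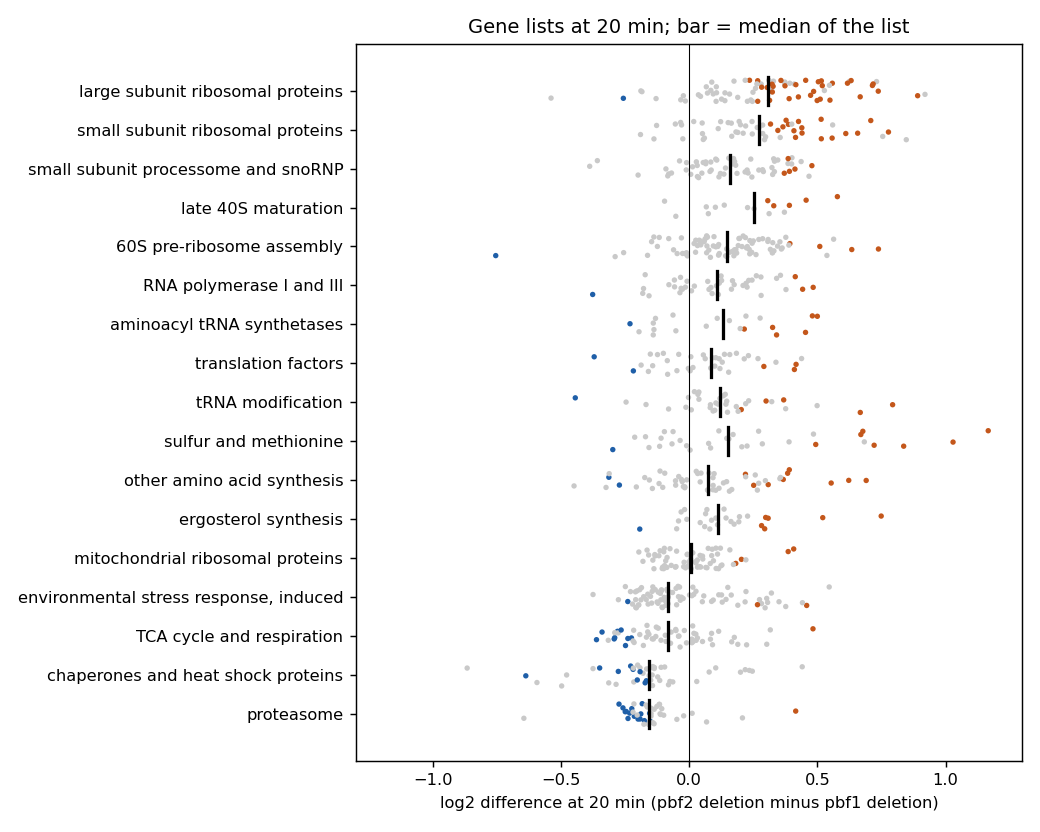
Each point is a gene, placed by its log2 difference at 20 min (x axis, delta-pbf2 minus delta-pbf1) in its list (y axis); the black bar is the list median, orange points passed as higher and blue points as lower. Ribosomal protein lists lie to the right, with medians of 0.31 and 0.27, and chaperones and the proteasome to the left, with medians of -0.16.

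Other parts of the translation apparatus had fewer calls, and their shares varied. Of 20 aminoacyl tRNA synthetase genes, 6 were higher (30.0%), 1 was lower and the median was 0.13. ILS1, the isoleucyl enzyme, read 2015, 2113 and 1819 in delta-pbf1 and 2766, 2853 and 2666 in delta-pbf2 (0.48 ± 0.06, adjusted p = 3.91e-05). GLN4 (0.50 ± 0.08), ALA1 (0.45 ± 0.08) and KRS1 (0.34 ± 0.07), the glutaminyl, alanyl and lysyl enzymes, were higher as well. All 4 passed with any of the 6 arrays left out.

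Of 37 translation factor genes, 3 were higher (8.11%, against 5.36% of all genes) and 2 were lower (5.41%, against 2.04%). Their median was 0.08. TIF3, the initiation factor eIF4B, was higher by 0.42 ± 0.07, and GCD6 and GCD2, subunits of eIF2B, by 0.41 ± 0.08 and 0.29 ± 0.07. DED1, a helicase of initiation, was lower, with 2575, 2215 and 2597 against 1948, 1918 and 1835 (-0.37 ± 0.11, adjusted p = 0.048). Of 35 tRNA modification genes, 5 were higher (14.3%), 1 was lower and the median was 0.12. TRM13, a tRNA methylase, read 140, 103 and 92.1 against 225, 180 and 171 (0.79 ± 0.16). TRM8, of the 7-methylguanosine complex, was higher by 0.67 ± 0.14, and TAD2, of the tRNA adenosine deaminase, was lower (-0.44 ± 0.11). Mitochondrial ribosomal protein genes, 65 in number, had 4 higher (6.15%, near the 5.36% of all genes), none lower and a median of 0.008.

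The proteasome genes lay on the other side. Of 43 genes, 15 were lower in delta-pbf2 (34.9%, against 2.04% of all genes), 1 was higher and 27 did not pass, with a median of -0.16. The lower calls numbered 23 with median centring and 11 after quantile normalization, and none was left with the hybridization controls or the spike-ins, where the medians were -0.10 and -0.14. RPN11, the deubiquitinase of the lid, read 3163, 3506 and 3638 in delta-pbf1 and 2931, 2811 and 2863 in delta-pbf2, without overlap (-0.26 ± 0.06, adjusted p = 0.0189). RPN10, a ubiquitin receptor (-0.27 ± 0.08), and PRE6, a core subunit (-0.25 ± 0.07), were lower. The higher gene was POC4, an assembly chaperone (0.42 ± 0.12, adjusted p = 0.045). RPN4, the transcription factor that drives these genes, read 1545, 2209 and 3138 against 1205, 1392 and 1671, which overlapped (-0.65 ± 0.28, adjusted p = 0.18). Heat shock raised the list by a median of 0.78 in delta-pbf1 and of 0.58 in delta-pbf2, and at 0 min the median difference was -0.01. No gene of the list passed in the response difference.

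Of 45 chaperone and heat shock protein genes, 9 were lower (20.0%), none was higher and the median was -0.16. The direction of calls in this list changed with the scaling: after quantile normalization 2 were lower and 2 higher, with a median of -0.03, and with the hybridization controls none passed. MDJ1, a mitochondrial Hsp40, read 4295, 4638 and 6363 in delta-pbf1 and 2993, 3064 and 3674 in delta-pbf2 (-0.64 ± 0.18, adjusted p = 0.0363). SIS1 and YDJ1, the main cytosolic Hsp40 proteins, were lower (-0.28 ± 0.08 and -0.23 ± 0.06). MBF1, a coactivator, was lower (-0.35 ± 0.10). APJ1, another Hsp40, varied widely between cultures, 512, 954 and 1668 against 387, 527 and 660, and did not pass (-0.87 ± 0.46, adjusted p = 0.283). Without delta-pbf1 culture 3 the chaperone median was -0.15 and none passed, and for the proteasome -0.15 with 3 lower.

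SSE2, an Hsp110 chaperone, changed sides. It read 324, 254 and 293 in delta-pbf1 and 350, 376 and 441 in delta-pbf2 at 0 min, and 6198, 6890 and 7321 against 5638, 5331 and 5418 at 20 min. The strain differences were 0.42 and -0.31, neither of which passed (adjusted p = 0.053 and 0.0719, the latter 0.028 with the replicate block), while the response difference did (-0.74, adjusted p = 0.0113). ZPR1, a zinc finger protein bound to the elongation factor eEF1A, read 5914, 6472 and 8964 against 4337, 4379 and 4779 at 20 min (-0.64 ± 0.19, adjusted p = 0.0408). Of 83 genes induced by many stresses, 2 were higher at 20 min (2.41%, against 5.36% of all genes) and 1 was lower (1.2%, against 2.04%). Their median was -0.08, which became 0.02 after quantile normalization. At 0 min 6 of them were higher (7.23%, against 0.927% of all genes) and none was lower, with a median of 0.16. The list's median signals per array overlapped at 0 min, with 332.7, 335.1 and 367.9 in delta-pbf1 against 327.9, 398.0 and 559.2 in delta-pbf2. Without delta-pbf2 culture 3, calls over all genes at 0 min fell from 57 to 15. In the response difference 3 genes of the list were lower, against 0.426% of all genes called in that direction, with a median of -0.23. CTT1, the cytosolic catalase, stood at 0.55 ± 0.18 and did not pass (adjusted p = 0.07), and GRE3, an aldose reductase, was lower (-0.24 ± 0.07). TRX3, the mitochondrial thioredoxin, was higher, with 1796, 1570 and 1536 against 2269, 2224 and 2226 (0.46 ± 0.07, adjusted p = 0.00075).

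In respiration, 9 of 58 genes were lower (15.5%), 1 was higher and the median was -0.08. The lower calls numbered 12 with median centring and 8 after quantile normalization, and none was left with the hybridization controls or the spike-ins. Without delta-pbf1 culture 3, or without delta-pbf2 culture 2, 3 were lower. ATP2 and ATP3, subunits of the ATP synthase, were lower (-0.29 ± 0.05 and -0.34 ± 0.07), as was QCR6, of complex III (-0.36 ± 0.10). ATP2 read 7152, 6799 and 6400 in delta-pbf1 and 5737, 5574 and 5299 in delta-pbf2. PCK1, the gluconeogenic carboxykinase, was the higher gene, with 122, 120 and 99.7 against 188, 148 and 144 (0.48 ± 0.14, adjusted p = 0.0392).

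Sulfur and methionine genes gave several of the largest differences. Of 32 genes, 7 were higher (21.9%), 1 was lower and the median was 0.15. STR2, the enzyme that joins cysteine to homoserine on the way to methionine, read 315, 355 and 331 in delta-pbf1 and 726, 800 and 721 in delta-pbf2 at 20 min (1.17 ± 0.08, adjusted p = 8.05e-09). It already differed at 0 min, with 122, 134 and 135 against 354, 370 and 378 (1.49, adjusted p = 1.4e-10). The wild type read 643, 739 and 762 at 20 min and the double deletion 258, 244 and 237, so STR2 was low in both strains without TOD6. Against the wild type it was lower in delta-pbf1 (-1.10, adjusted p = 5.1e-08), while delta-pbf2 stood at 0.07 (adjusted p = 0.63).

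The cysteine transporter gene YCT1 behaved differently. Its signals were 118, 142 and 139 in delta-pbf1 and 264, 257 and 291 in delta-pbf2 at 20 min (1.03 ± 0.11, adjusted p = 7.75e-06). At 0 min they were 88.7, 102 and 99.2 against 83.0, 92.9 and 107, which overlapped. The wild type read 135, 135 and 151 at 20 min, near delta-pbf1, and the double deletion 208, 226 and 227. SAM3, the S-adenosylmethionine permease, read 344, 370 and 316 against 546, 556 and 594 (0.72 ± 0.11), and MET2, the homoserine acetyltransferase, 252, 333 and 287 against 385, 518 and 689 (0.84 ± 0.23). SSU1, a sulfite exporter, was higher by 0.87 ± 0.20.

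Among other metabolic genes, 9 of 55 genes of amino acid synthesis were higher (16.4%), 2 were lower and the median was 0.07. ILV1, the threonine deaminase, was higher by 0.69 ± 0.11, LYS12 by 0.62 ± 0.07 and HIS6 by 0.55 ± 0.07. HIS6 read 260, 292 and 309 against 419, 422 and 420. GAP1, the general amino acid permease, read 169, 141 and 142 against 282, 274 and 316 (0.95 ± 0.12), with the double deletion lower than either at 63.7, 64.8 and 81.7. Of 27 ergosterol genes, 6 were higher (22.2%), 1 was lower and the median was 0.11. ERG24, the sterol C-14 reductase, read 685, 739 and 589 against 1120, 1116 and 1132 (0.75 ± 0.09, adjusted p = 1.54e-05), and ERG3, a desaturase, was higher by 0.52 ± 0.11.

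In nucleotide synthesis, 2 of 34 purine and one-carbon genes were higher (5.88%, near the 5.36% of all genes) and none lower, with a median of 0.11. They were MIS1 (0.53 ± 0.15) and SHM1 (0.31 ± 0.06), mitochondrial enzymes of folate metabolism. AAH1, the adenine deaminase, read 356, 165 and 137 against 418, 324 and 362, which overlapped (0.87 ± 0.30, adjusted p = 0.0803, and 0.0111 with the replicate block). Of 18 pyrimidine genes, URA10, a minor orotate phosphoribosyltransferase, was the 1 to pass (0.56 ± 0.13), and of 18 arginine genes it was CPA1, of carbamoyl phosphate synthesis (0.34 ± 0.09). Of 36 cell cycle genes, MSH6, of mismatch repair, was higher (0.39 ± 0.09). Of 31 iron and phosphate genes, PHO3 was higher and FTH1, a vacuolar iron transporter, was lower (-0.27 ± 0.08).

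FAT3, a gene of fatty acid uptake, had the largest difference of the higher genes apart from the deleted one. It read 107, 82.6 and 66.6 in delta-pbf1 and 220, 192 and 187 in delta-pbf2, a 2.37-fold difference (1.25 ± 0.17, adjusted p = 9.68e-05). At 0 min it read 70.0, 72.1 and 57.3 against 57.0, 55.1 and 61.8, which overlapped. The double deletion, at 182, 178 and 232 after heat shock, lay in the delta-pbf2 range, and the wild type, at 83.3, 70.9 and 72.3, in the delta-pbf1 range.

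In carbohydrate metabolism, the members that passed were isolated. PGM1, a minor phosphoglucomutase, read 681, 665 and 803 against 1150, 1180 and 1170 (0.71 ± 0.08, adjusted p = 1.43e-05). It was the 1 gene of 21 in trehalose and glycogen metabolism to pass. ADH2, the glucose-repressed alcohol dehydrogenase, read 206, 214 and 197 against 371, 333 and 341 (0.76 ± 0.11), the 1 gene of 22 in the glycolysis list. TKL2, a minor transketolase, read 760, 588 and 420 against 1206, 1021 and 1008 (0.91 ± 0.19). HXT3, a low-affinity hexose transporter, was higher by 0.40 ± 0.10. None of 36 cell wall genes passed, with a median of -0.015.

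The remaining large differences belong to scattered functions. RTT107, a scaffold of replication repair, read 73.3, 89.6 and 83.0 against 156, 176 and 163 (1.01 ± 0.22). SRO77, which acts in exocytosis, was higher by 0.91 ± 0.19, SHC1, an activator of chitin synthase, by 0.94 ± 0.28, PHO3, an acid phosphatase, by 0.83 ± 0.20, PDR15, a drug exporter, by 0.82 ± 0.12, and ATG39, a receptor of nucleophagy, by 0.81 ± 0.17. On the lower side COS12, of a subtelomeric family whose members are alike in sequence, read 46.1, 41.5 and 28.4 against 19.2, 13 and 13.3 (-1.34 ± 0.27, adjusted p = 0.0043). It stood at -1.05 at 0 min (adjusted p = 0.056). HBN1, of the nitroreductase type (-0.60 ± 0.15), NAB2, a poly(A)-binding protein (-0.45 ± 0.14), and ATF2, an alcohol acetyltransferase (-0.44 ± 0.12), were lower. So were RER2, of dolichol synthesis (-0.41 ± 0.10), TOS3, a kinase upstream of Snf1 (-0.39 ± 0.11), and PLB3, a phospholipase (-0.38 ± 0.08). The uncharacterised YKL183C-A, YCL042W and YJL047C-A were lower too (-0.96 ± 0.29, -0.84 ± 0.19 and -0.78 ± 0.24).

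The a-cell genes had positive differences in 7 of 7, with a median of 0.45, against 2917 of all 5395 genes. As higher, 2 passed (28.6%, against 5.36% of all genes). No gene of the list passed with the hybridization controls or the spike-ins. The same held without delta-pbf1 culture 3, delta-pbf2 culture 1 or delta-pbf2 culture 2. BAR1, the protease that degrades alpha pheromone, read 684, 684 and 451 against 1172, 944 and 829 (0.71 ± 0.20), and STE6, the a-factor exporter, was higher by 0.60 ± 0.15. AGA2, an agglutinin subunit, stood at 0.85 ± 0.27 (adjusted p = 0.0628, and 0.0222 with the replicate block). The median heat shock change of the list was -1.46 in delta-pbf1 and -1.03 in delta-pbf2. In cultures, fewer cells of a type and less RNA per cell cannot be told apart. Of 19 haploid and pheromone genes, FUS1, of cell fusion, passed (0.42 ± 0.11). HIS3, which is deleted in part in BY4741, read 1226, 1067 and 1049 against 1467, 1442 and 1553 (0.42 ± 0.08).

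**Figure D4:**
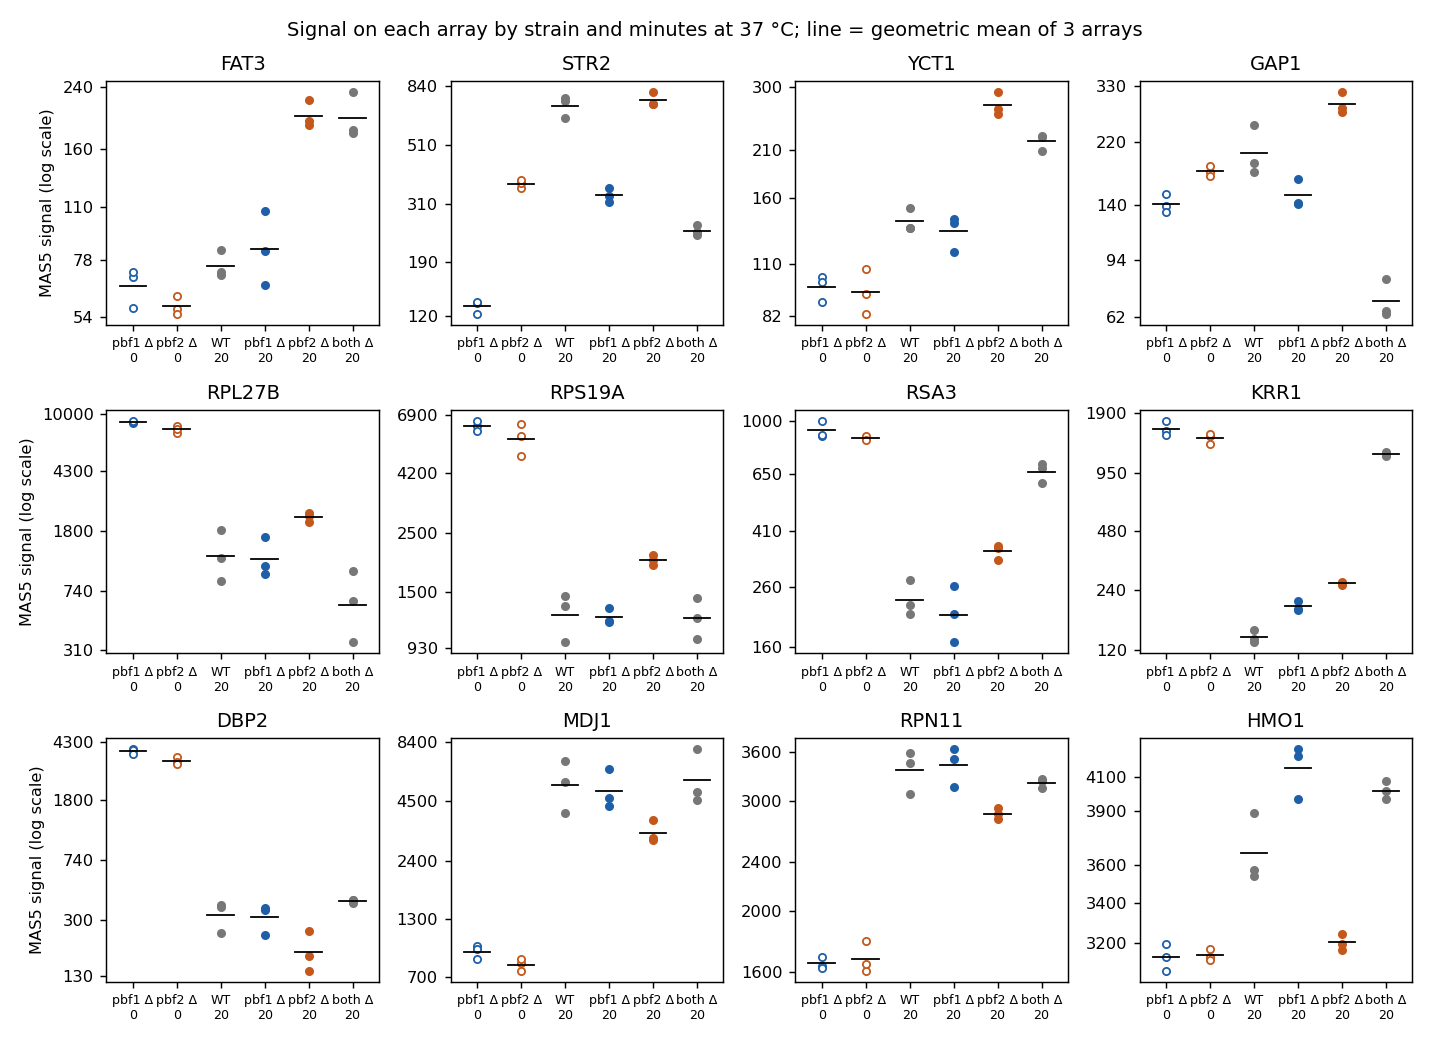
Each panel shows 1 gene, with the signal on a log scale for each of 3 arrays by strain and minutes at 37 °C, the line marking the geometric mean. Blue is delta-pbf1 and orange delta-pbf2, open at 0 min and filled at 20 min; wild type and double deletion at 20 min are grey. STR2 differs at both times, FAT3, YCT1 and HMO1 at 20 min, and KRR1 is at 1158 to 1209 in the double deletion against 191 to 264 in the single deletions.

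Genes next to the deleted loci were examined as well. Of the 2 genes on each side of TOD6, YBL055C read 627, 647 and 623 in delta-pbf1 and 800, 856 and 939 in delta-pbf2 at 20 min (0.45 ± 0.08, adjusted p = 0.00174), and it passed at 0 min as well (0.39, adjusted p = 0.02). SAS3, PTC3 and PIN4 stood at 0.21, 0.04 and -0.15 and did not pass. Around DOT6, SBH1 was lower at 20 min (-0.27 ± 0.07, adjusted p = 0.0349), and PTC2, TRP2 and AIM10 stood at -0.11, -0.01 and -0.01.

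Before heat shock fewer genes passed. At 0 min 57 genes passed (1.06%), 50 higher in delta-pbf2 (0.927%) and 7 lower (0.130%), and 9 of the 289 and 1 of the 110 genes called at 20 min were also called with the same sign at 0 min. ARN2, a siderophore transporter, read 735, 697 and 698 in delta-pbf1 and 1013, 1205 and 1589 in delta-pbf2 (0.81, adjusted p = 0.0063). ENB1 and ARN1, also siderophore transporters, were higher by 0.73 and 0.56, and CCC2, the copper pump needed for iron uptake, by 0.48. At 20 min these 4 stood at 0.14, -0.19, -0.03 and -0.17, and none passed. GCV1, of the glycine cleavage system, was higher by 0.80, YOL162W, a putative transporter, by 0.77, VMR1, a vacuolar transporter, by 0.76, and PCK1 by 0.62. ARO10, a decarboxylase of aromatic amino acid breakdown, read 125, 262 and 127 against 84.5, 56.4 and 63.7 (-1.26, adjusted p = 0.013). INH1, the inhibitor of ATP synthase, stood at -0.64, CFD1, of cytosolic iron-sulfur assembly, at -0.33, COX4 at -0.33 and DPH2, of diphthamide synthesis, at -0.30, all passing.

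**Figure D5:**
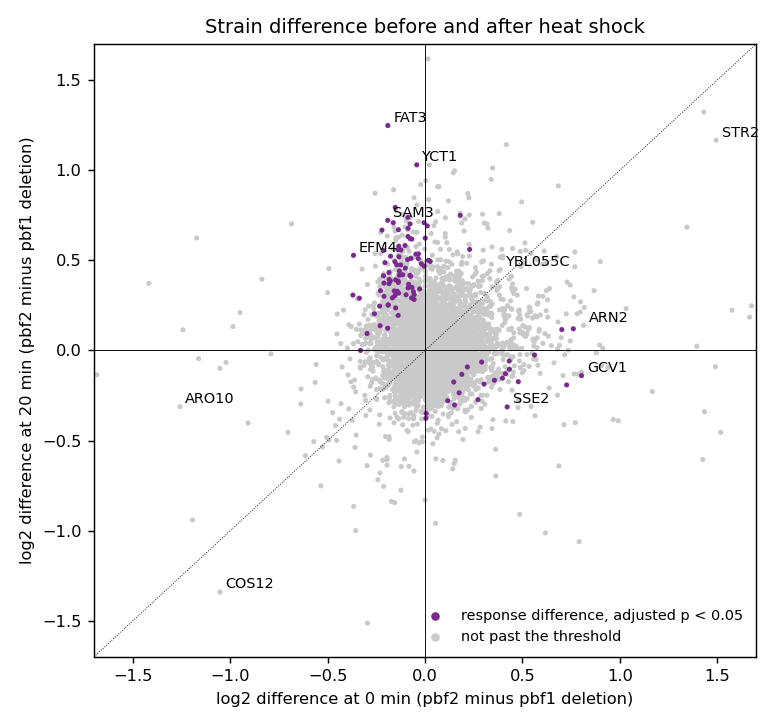
Each point is a gene, with the log2 difference delta-pbf2 minus delta-pbf1 at 0 min on the x axis and at 20 min on the y axis; the dotted line marks equality, and purple points passed in the response difference. STR2 lies near the line, FAT3 and YCT1 lie high above zero at 20 min alone, and 10 genes with a difference over 1.7 at either time, none purple, are off the scale.

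The test of the difference between the 2 times found 105 genes (1.95%). Of them, 82 had a positive value (1.52%) and 23 a negative one (0.426%). FAT3 (1.44), YCT1 (1.07), TRM13 (0.95), SAM3 (0.91), EFM4, a methylase of elongation factor eEF1A (0.90), and TRM8 (0.89) had the largest positive values among them. EFM4 read 1321, 1382 and 1459 in delta-pbf1 and 1090, 1096 and 1038 in delta-pbf2 at 0 min, and 263, 237 and 219 against 338, 361 and 335 at 20 min. Its groups did not overlap at either time, and their order turned. GCV1 (-0.94) and ENB1 (-0.92) had the largest negative values. In the authors' deposited table of heat shock ratios, the same difference between delta-pbf2 and delta-pbf1 had a median of -0.007 over all genes, and of 0.365 for the small subunit processome and 0.319 for 60S assembly.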

How the data were processed

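Linear intensity values, as deposited, give each probe set's brightness on each array. The submitters' processing notes name MAS5 for them. Tested on the values, each array's mean with 2% trimmed on each side was close to 500. The authors' deposited table of heat shock ratios holds log2 values per strain, per the file headers, and was used for medians only. No genome build is named, so positions are left out. Gene names come from the platform annotation, and neighbours from the RefSeq gene table of R64. For a gene with several probe sets the brightest was taken. Of 5449 genes, 5395 with a mean log2 signal over 2.35, the 90th percentile of probe sets outside S. cerevisiae, were tested and 54 left out. A signal over the 95th percentile of those probe sets counted as above background. For arrays, their number limits the precision.

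Log2 signals of all 24 arrays were fitted as 8 group means with limma 3.58.1 in R 4.3.3 (eBayes with trend). Tests were two-sided, with Benjamini-Hochberg adjustment over all genes tested in a comparison and a threshold of 0.05. Tested on simulated data of 5395 genes for the 20 min comparison, 31 of 100 genes with a true log2 difference of 0.3 and 82 of 100 with 0.6 passed, with 10 false calls among 123. The simulated noise was independent between genes and arrays, without shared array, replicate or scaling effects, so these rates need not hold for the data.

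Deviations from the group means were correlated across genes between delta-pbf1 and delta-pbf2 arrays with the same replicate number. The values were 0.466, 0.103 and 0.44 at 20 min and 0.218, -0.0217 and 0.159 at 0 min. The numbers were thus taken to pair the 20 min arrays and not the 0 min arrays. This choice was made on the same data, without differently numbered arrays beside it. In signal level, delta-pbf1 array 2 correlated more with delta-pbf2 array 3 (0.9888) than with delta-pbf2 array 2 (0.98795) at 20 min. Seen from delta-pbf1 arrays 1 and 3, the same-numbered delta-pbf2 array was the closest. Seen from delta-pbf2, this held for arrays 1 and 2. Its array 3 correlated less with delta-pbf1 array 3 (0.98404) than with delta-pbf1 arrays 1 (0.98489) and 2 (0.9888). In the fit of all arrays the block covered 0 min as well. Calls that need the block thus rest on a pairing that the check does not establish. The labels do not say what a shared number means between strains. Within a strain it was taken to mark the 0 min and 20 min parts of 1 culture. Deviations of these 2 parts correlated at 0.073, 0.0117 and 0.0216 in delta-pbf1 and at 0.13, -0.0408 and 0.113 in delta-pbf2.

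The members and gene lists were chosen with earlier results of these data known. Named were DOT6 and TOD6, the 15 largest higher and lower genes at 20 min, the 6 and 6 largest at 0 min and of the response difference, up to 4 passing genes and the 2 largest of each list, and 2 neighbours on each side of the deleted genes. Lists are given by counts and medians, without a set test. The alternatives concerned scaling, filters, pseudocount, the fit, the block and left-out arrays.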

Additional observations from a re-analysis of the deposited data

Results flagged for a closer look

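A test of the strain difference at 20 min against that at 0 min, over all genes, picked out 37 of the 152 named genes, 29 with a positive and 8 with a negative value. Each value below is the log2 difference delta-pbf2 minus delta-pbf1 at 20 min less that at 0 min, and each passed in limma's fit with Benjamini-Hochberg adjustment. Translation, tRNA and ribosome genes with a positive value were TRM13 (0.95), EFM4 (0.90), TRM8 (0.89), RPS19A (0.87), RSA3 (0.83), DIM1 (0.71), RPC82 (0.63), NOP6 (0.56), TIF3 (0.55), RAT1 (0.55), KRR1 (0.54), ILS1 (0.50), RIO2 (0.49), GCD6 (0.48), GLN4 (0.48), GCD2 (0.46), DPH2 (0.39) and KRS1 (0.37). Metabolic and transport genes with a positive value were FAT3 (1.44), YCT1 (1.07), SAM3 (0.91), HIS6 (0.77), PGM1 (0.71), ILV1 (0.68), LYS12 (0.62), ERG24 (0.57) and HIS3 (0.53). Of other functions were MSH6 (0.58) and CFD1 (0.33). A positive value need not mean a larger difference at 20 min: DPH2 stood at -0.30 at 0 min and at 0.09 at 20 min. The 8 genes with a negative value were HMO1 (-0.38), FTH1 (-0.55), ARN1 (-0.59), VMR1 (-0.64), CCC2 (-0.65), SSE2 (-0.74), ENB1 (-0.92) and GCV1 (-0.94). FTH1, ARN1, CCC2 and ENB1 act in iron or copper transport, and their strain difference was positive at 0 min and below zero at 20 min. Dixon's test of an outlying value was not run on these groups of 3 arrays.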

How the results depend on the processing

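With the same arrays and tests, the count of 399 genes at 20 min became 438 after quantile normalization, with 324 shared, and 424 after median centring, with 296 shared. It was 60 when arrays were centred on the hybridization controls (60 shared), 2 on the poly(A) spike-ins, where 27 genes had an unadjusted p under 0.05, and 188 when the fit held the 6 arrays alone. The replicate block gave 613, and with the 6 arrays alone, an alternative chosen after seeing the data, 1023. Leaving out 1 array at a time gave 132 to 501 genes. At 0 min the 57 genes became 20 (quantile), 30 (median), 18 (hybridization controls), 2 (spike-ins), 28 (groups compared alone), 107 (replicate block, where the check did not pair the numbers) and 15 to 58 with an array left out. The 105 genes of the response difference became 1 (hybridization controls), 0 (spike-ins, in limma's fit, where 78 genes had an unadjusted p under 0.05), 273 (replicate block) and 52 to 218 with an array left out, and 95 and 145 with the culture as a fixed and as a random block. Spike-in centring moved the median of all genes to -0.45 at 0 min and to 0.46 in the response difference. Sign changes of named genes that passed neither in the main fit nor in the alternative were not counted. Among the others of the 152 named genes, none turned its direction at 20 min. Of the 106 that passed there, 75 were lost with the hybridization controls, 104 with the spike-ins and 12 after quantile normalization, and 43 passed with each of the 6 arrays left out in turn. The replicate block ended no call of a named gene and added 8. The causes were not tested.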
